A study of Drosophila melanogaster with 3 samples.

Results

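Weak promoter peaks of a Mastermind-GFP precipitation were described, meaning sites near a transcription start site (TSS) at which the pooled signal was too low to enter the reproducible peak list. They were selected on 2 properties of the dm6 peak lists. The peak belonged to the pooled list of peaks and background but not to the list thresholded by the irreproducible discovery rate (IDR), and its summit lay within 500 bp of a protein-coding TSS on 1 of 6 main chromosome arms. There were 4867 such peaks, which was 20.2% of all 24073 pooled peaks and 26.0% of the 18747 weak ones (exact binomial 95% interval 25.3% to 26.6%). The other 13880 weak peaks lay away from promoters, and 2906 of the 5326 reproducible peaks lay at them.

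The material was whole mixed-sex Drosophila melanogaster embryos aged 0-24 hour, of the strain mam-MiMIC-GFP, in which an eGFP exon placed in an intron of mam yields a tagged Mam protein. All 3 samples were biological replicates of this 1 group. Tagged protein was precipitated with anti-GFP, per the sample descriptions, although the antibody entry of the labels reads mam. Sonication gave fragments of 200-800 bp, a possible control named in the labels was not analysed here, and all tissues and stages of the embryo were mixed. Binding data carry no expression values, so the cell types present could not be checked against markers.

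Mastermind is a coactivator of the Notch pathway. After a ligand on a neighbouring cell triggers cleavage of the Notch receptor, its intracellular part enters the nucleus and binds Suppressor of Hairless, Su(H), which recognises DNA, and Mastermind then docks on that pair and recruits the acetyltransferase CBP and the Mediator kinase module. Promoters of Drosophila fall into broad kinds by their core sequences. Those of housekeeping genes often carry the DNA replication-related element (DRE) bound by DREF, the Ohler 1 motif bound by M1BP, or the Ohler 7 motif, while many developmental promoters carry a TATA box, an Initiator or GAGA repeats bound by GAGA factor.

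The sequences below, from the Release 6 (dm6) assembly, show what these promoters look like at the letter level. For each motif they are 2 members of high pooled signal that hold it within 100 bp of the summit in 61 bases free of annotated exons. These members come from arms 2L, 3L, 3R and X only, so members of higher signal may exist on other arms. Capitals mark the motif or its reverse complement. DRE, Ohler 1 and Ohler 7 are shown because their shares separated weak from reproducible promoters or from weak peaks elsewhere, and GAGA and Su(H) because one was more frequent in weak promoter peaks and the other is the site of the partner of Mastermind.
DRE near CG7646, chr3L:19991815-19991875, + strand: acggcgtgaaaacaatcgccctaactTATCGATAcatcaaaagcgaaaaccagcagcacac
DRE near gammaCOP, chr3R:31572082-31572142, + strand: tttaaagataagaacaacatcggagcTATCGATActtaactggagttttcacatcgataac
Ohler 1 near Aatf, chr2L:6717545-6717605, + strand: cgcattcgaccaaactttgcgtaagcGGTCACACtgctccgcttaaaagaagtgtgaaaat
Ohler 1 near CG10516, chr3L:15968119-15968179, + strand: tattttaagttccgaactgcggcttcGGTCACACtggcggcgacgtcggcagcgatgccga
Ohler 7 near CG15916, chrX:15890526-15890586, + strand: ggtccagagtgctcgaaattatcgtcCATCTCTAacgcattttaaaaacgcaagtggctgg
Ohler 7 near ago, chr3L:4254316-4254376, + strand: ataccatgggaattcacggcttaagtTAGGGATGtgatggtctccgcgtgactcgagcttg
GAGA near dnc, chrX:3288861-3288921, + strand: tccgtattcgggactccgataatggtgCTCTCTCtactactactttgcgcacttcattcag
GAGA near CG2747, chr3R:8027504-8027564, + strand: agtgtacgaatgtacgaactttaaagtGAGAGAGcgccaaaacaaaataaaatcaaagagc
Su(H) near Top1, chrX:15320071-15320131, + strand: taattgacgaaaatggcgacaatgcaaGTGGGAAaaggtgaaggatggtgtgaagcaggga
Su(H) near Mis12, chr3L:6969309-6969369, + strand: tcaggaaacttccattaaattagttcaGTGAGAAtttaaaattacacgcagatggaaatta
A match is a run of letters and not a measured binding site.

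The signal, a peak height whose scaling is not stated in the sources used here, ran from 35.0 to 110.2 in the members, with a median of 54.4, and this range was fixed by the selection. Reproducible promoter peaks had a median of 214.6. The median −log10 q-value of the members was 0.535, and 774 of them (15.9%) had a value of at least 2. The last peaks inside the reproducible list had signals of 110.377 near Rpt3, a proteasome subunit, 110.366 near Ets97D, away from a promoter, and 110.259 near CG12567. The first members outside it had 110.215 at Mpcp2, a mitochondrial phosphate carrier, 110.165 at CG7889 and 110.099 at sick. The threshold cut 1 list sorted by signal, so the small step across it followed from the selection. A total of 834 members (17.1%) overlapped another member, so neighbouring members partly shared the same fragments.

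Promoter summits became less common down the pooled ranking. They made up 65.9% of ranks 1 to 1000, 44.0% of ranks 5001 to 6000, 31.6% of ranks 9001 to 10000, 23.9% of ranks 14001 to 15000 and 16.9% of ranks 23001 to 24000. The bases of the arms within 500 bp of a TSS made up 11.5% of all, and even the last full bin lay above that share. In the replicate lists, summits beyond the 5326 strongest lay at promoters in 24.4%, 22.6% and 23.3% of cases in replicates 1, 2 and 3. The same share over the 5326 strongest was 54.8% ± 1.29 (SD, n = 3), and over the last 1000 peaks 15.2% ± 1.07.

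**Figure D1:**
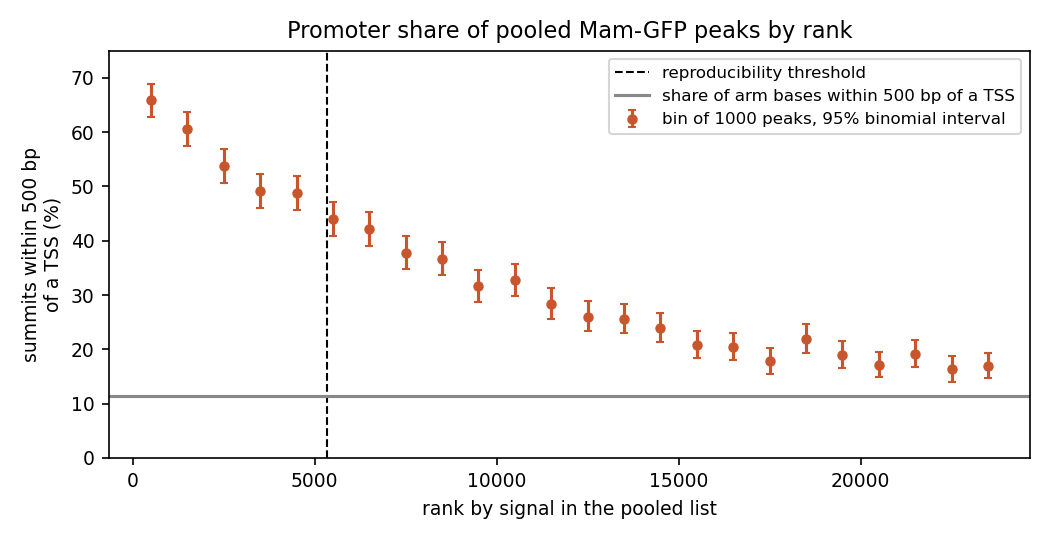
Share of pooled Mam-GFP summits within 500 bp of a protein-coding TSS (vertical axis, percent) in bins of 1000 peaks by rank (horizontal axis, 1 is strongest), with exact binomial 95% intervals. The share was 65.9% in the first bin and 16.9% in the last full bin, above the 11.5% of arm bases in such windows (grey line), and passed the reproducibility threshold (dashed line) without a step.

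The weak promoter summits were spread more widely around the start site than the reproducible ones and lay more often downstream of it. The median distance to the TSS was 130 bp in members and 92 bp in reproducible promoter peaks. Their median position was -24 bp from the TSS (negative is upstream), against -79 bp for reproducible promoter summits, and 57.4% against 84.2% lay upstream. More than 100 bp downstream of the TSS, inside the transcribed region, lay 1192 members (24.5%) and 156 reproducible promoter peaks (5.37%). Coding sequence held 579 member summits (11.9%) and 20 reproducible promoter summits (0.688%), beside 15.2% of the weak summits away from promoters.

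The same contrast was taken within each replicate list, between weak and strong promoter peaks, where strong meant the 5326 highest signals of that list. In replicates 1, 2 and 3, 32.0%, 24.4% and 26.5% of weak promoter summits lay over 100 bp downstream, against 7.27%, 5.88% and 5.43% of strong ones. The groups did not overlap, and the mean difference was 21.5 points ± 3.10 (SD, n = 3, higher in 3 of 3 replicates, exact sign-flip permutation test, two-sided p = 0.25). For coding sequence the shares were 14.0% ± 2.30 and 0.835% ± 0.123, a difference of 13.2 points ± 2.28 (n = 3, higher in 3 of 3, exact p = 0.25). With 3 replicates this test cannot give a p below 0.25, so no contrast here can reach 0.05.

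**Figure D2:**
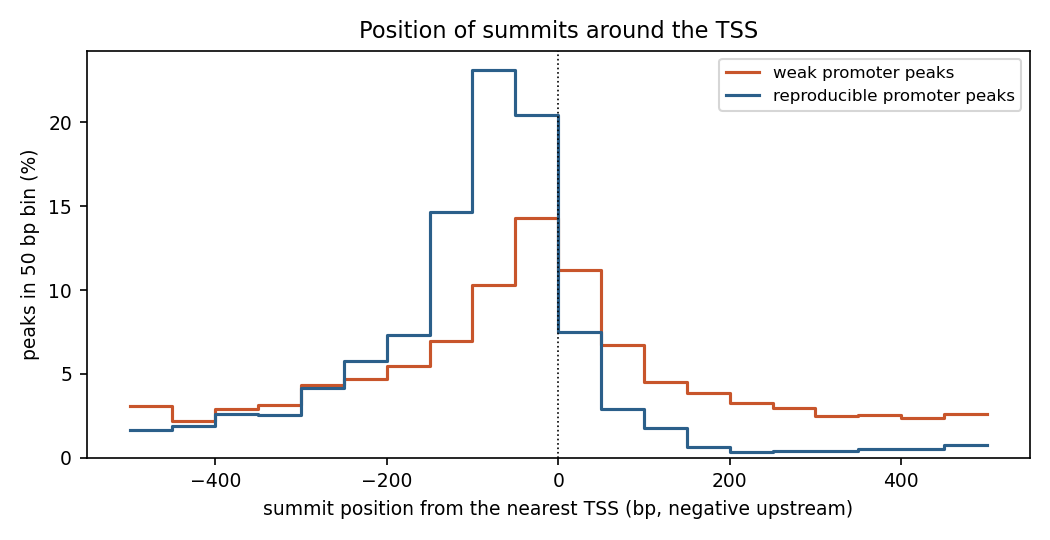
Position of summits from the nearest protein-coding TSS (horizontal axis, bp, negative upstream) as the percent of peaks in 50 bp bins (vertical axis) for weak (orange) and reproducible (blue) promoter peaks. The weak peaks spread further into the transcribed side, with 24.5% over 100 bp downstream against 5.37%.

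Position varied with rank among the members. The downstream share was 9.96% in pooled ranks 5327 to 8000, 18.9% in 8001 to 12000, 30.3% in 12001 to 16000, 35.8% in 16001 to 20000 and 37.1% in the rest, and the coding share ran from 2.24% to 21.2% over the same bins. Even the strongest members were above the 5.37% and 0.688% of reproducible promoter peaks. The 201 bases around the summit had a median G+C content of 41.3% in members and 36.8% in reproducible promoter peaks, and it was 41.3% in weak peaks elsewhere. A second, opposite-strand TSS within 1000 bp upstream, the layout of divergent promoters, was present for 26.9% of members and 45.7% of reproducible promoter peaks. Whether G+C content or gene layout bore on the position was not tested.

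Most members stood without a reproducible summit beside them. A reproducible summit lay within 500 bp of the same TSS for 521 members (10.7%) and within 500 bp of the member summit for 418 (8.59%). Within 1000 bp of the summit the number was 925 (19.0%). At the gene tay the 1 summit, 71 bp upstream, stood alone, whereas at Grx3, a glutaredoxin gene, a weak summit of signal 109.9 lay at a TSS that also had a reproducible one.

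A member summit lay inside a peak of replicate 1 in 77.2% of cases, of replicate 2 in 64.0% and of replicate 3 in 67.2%, a mean of 69.5% ± 6.89 (SD, n = 3). The lists held 30000, 24267 and 24306 peaks, and the longest list gave the highest share. Whether the first was cut at that round number is not stated, and a cut would bear on its shares and on summits called absent from it. For weak peaks elsewhere the shares were 68.8%, 56.0% and 58.7%. Promoter members were thus found 8.29 points ± 0.273 more often (n = 3, higher in 3 of 3 replicates, exact sign-flip permutation p = 0.25).

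At matched pooled rank the difference between the means was smaller and its sign changed over the bins. In ranks 5327 to 8000 the share found was 94.0% ± 0.636 for members and 95.5% ± 0.296 for weak peaks elsewhere (SD, n = 3). It was 79.9% and 81.5% in ranks 8001 to 12000, and 62.6% and 63.0% in ranks 12001 to 16000. In the 2 lowest bins members were at 50.7% and 42.0%, and peaks elsewhere at 49.0% and 38.9%. The replicates differed in the lowest bin. Replicate 1 found 57.8% of members and 47.7% of peaks elsewhere, replicate 2 33.0% and 33.4%, and replicate 3 35.4% and 35.5%. Members had stronger pooled signals than weak peaks elsewhere (medians of 54.4 and 45.9), and the pooled list was made from these same replicates, so support is partly built in.

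Another view left the pooled list out and asked whether a weak peak of 1 replicate list held its summit inside a peak of another. This was so for 52.4% ± 6.54 of weak promoter peaks and 35.7% ± 3.94 of weak peaks elsewhere, 16.7 points ± 2.76 apart (SD, n = 3, higher in 3 of 3, exact p = 0.25). Each of the 3 values averages the overlaps of 1 replicate with the others. Every pair of replicates thus enters more than 1 value, so neither SD nor p here rests on independent values. Here the difference remained at matched rank within the replicate. In ranks 5327 to 10000 the shares were 73.9% ± 4.82 and 67.9% ± 4.48, a difference of 6.02 points ± 0.606. In the 3 lower bins, up to rank 30000, the promoter peaks were ahead by 11.6, 11.7 and 10.5 points. All 4 bins had the promoter share higher in 3 of 3 replicates (exact p = 0.25 in each, the smallest possible).

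**Figure D3:**
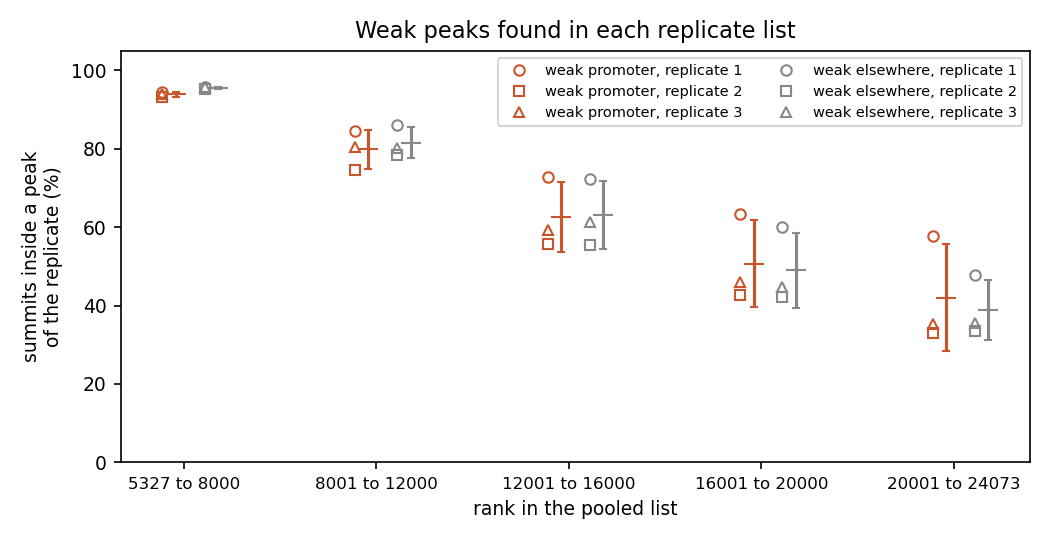
Share of weak pooled summits inside a peak of each replicate list (vertical axis, percent) by pooled rank (horizontal axis), for weak promoter peaks (orange) and weak peaks elsewhere (grey). Symbols are replicates, and bars the mean ± SD of 3. The means of the 2 classes fell from 94.0% and 95.5% in the first bin to 42.0% and 38.9% in the last. In that last bin replicate 1 stood at 57.8% and 47.7%.

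Of the members, 1719 (35.3%) were found in all 3 replicates, 1917 in 2, 1151 in 1 and 80 in none. Support differed by position. Summits within 100 bp of the TSS were found in all 3 lists in 42.5% of cases, those further upstream in 37.7% and those further downstream in 19.6%. Support and position both varied with pooled rank. Members were found in all 3 lists in 83.1% of cases in ranks 5327 to 8000 and 1.99% in ranks 20001 to 24073. The downstream share rose over the same ranks. Whether support differed by position at matched rank was not tested. The members reached the 5326 strongest peaks of a replicate 481, 377 and 377 times in replicates 1, 2 and 3. The replicate peak that holds a member summit can be that of a neighbouring reproducible summit. At pen-2, of pooled rank 9486 with a reproducible summit at the same TSS, the ranks were 2339, 2202 and 2235. Members beside a reproducible summit were found in all 3 lists in 37.4% of cases, and the others in 35.1%. Reproducible promoter peaks, for comparison, were found in a replicate in 99.0% ± 0.139 of cases (SD, n = 3).

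Some members ranked high in every replicate and others in only part of them. At Mpcp2 the replicate signals were 37.3, 38.7 and 41.8, at ranks 6082, 4895 and 4893 of the lists of replicates 1, 2 and 3. At pelo, a ribosome rescue factor, the ranks were 7959, 3638 and 4368. At Taf1, the largest subunit of the general factor TFIID, the summit was 8 bp upstream of the TSS and ranked 4182, 7464 and 6701. The replicates differed more at Aatf, whose summit ranked 4037 and 5660 in replicates 1 and 2 but 23174 in replicate 3, near the end of that list. The sequence printed above with its Ohler 1 motif comes from this promoter.

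Both strands of the 201 bases around each summit were scanned for motifs, and none of the 10 letter strings contained another. DRE (TATCGATA) was held by 6.12% of members, 10.2% of reproducible promoter peaks and 0.418% of weak peaks elsewhere, and by 6.43% of equal windows around all TSSs. For Ohler 1 (GGTCACAC) these shares were 5.12%, 5.54%, 0.497% and 5.68%. For Ohler 7 (CATCNCTA) they were 3.72%, 10.6%, 1.46% and 4.51%. Around their summits the members thus held DRE and Ohler 1 about as often as windows centred on all TSSs. They lay far below reproducible peaks in Ohler 7. Many member summits lay away from the TSS, so the windows of members and of all TSSs are not alike. In windows centred on the TSS, TSSs with only a weak summit nearby held DRE in 8.69% and Ohler 1 in 8.73% of cases. Both lay above the shares of all TSSs, whereas Ohler 7, at 3.94%, lay below.

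Within the replicate lists DRE was in 4.81%, 6.27% and 5.66% of weak promoter peaks and in 9.06%, 10.1% and 10.3% of strong ones in replicates 1, 2 and 3, a difference of -4.25 points ± 0.436 (SD, n = 3). Ohler 7 was in 3.20%, 3.71% and 3.84% of weak and 9.37%, 10.1% and 10.5% of strong promoter peaks, a difference of -6.43 points ± 0.273. For both motifs the weak and strong shares did not overlap. Ohler 1 differed by only -0.743 points ± 0.439. The motif of GAGA factor, searched as GAGAGAG, was in 5.57% of members and 4.67% of windows around all TSSs. It went the other way, at 4.93% ± 0.416 in weak and 4.01% ± 0.601 in strong promoter peaks, higher in 3 of 3 replicates by 0.918 points ± 0.266. The exact sign-flip permutation p was 0.25 for each of these (Benjamini-Hochberg adjusted over 10 motifs, 0.278).

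Su(H) sites (either GTGGGAA or GTGAGAA) were in 4.89% of members, 5.30% of reproducible promoter peaks, 4.76% of weak peaks elsewhere and 4.27% of all TSS windows. The replicate difference was -0.614 points ± 0.119 (SD, n = 3, lower in 3 of 3, exact permutation p = 0.25). The weak promoter share was therefore close to that of weak peaks elsewhere and of promoters at large. The E-box (CAGCTG) was in 12.1% of members and 13.5% of TSS windows, the TATA box (TATAAA) in 25.3% and 26.8%, the Initiator (TCAGT) in 34.3% and 43.3%, the early-embryo Zelda site (CAGGTAG) in 0.986% and 1.08%, and the Pho site (GCCAT) of the Polycomb recruiter Pleiohomeotic in 29.9% and 30.8%. In the replicates the TATA box was lower in weak than in strong promoter peaks, by -5.98 points ± 0.560 (n = 3, 3 of 3 lower, exact permutation p = 0.25). Besides GAGA, the Initiator and Pho were higher in weak promoter peaks, by 1.76 points ± 1.33 and 1.87 points ± 0.934. Each was higher in 3 of 3 replicates, with the same permutation p.

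**Figure D4:**
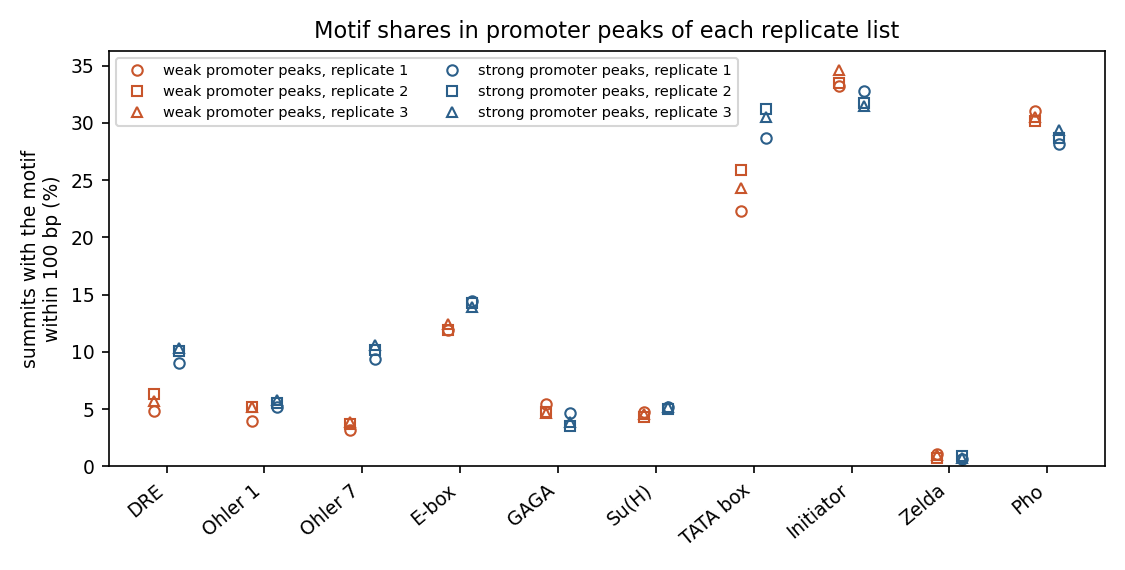
Percent of promoter summits with each of 10 motifs within 100 bp (vertical axis) in weak (orange) and strong (blue) promoter peaks of the replicate lists. Each symbol is a replicate. DRE, Ohler 7, E-box, Su(H) and TATA box shares were lower in all weak than in all strong values. Ohler 7 reached at most 3.84% in weak and at least 9.37% in strong promoter peaks. GAGA, Initiator and Pho shares were higher in all weak than in all strong values.

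Housekeeping motifs were less frequent in weaker members. DRE was in 10.8% of members in ranks 5327 to 8000 and 2.13% of those in ranks 20001 to 24073, and Ohler 7 in 7.09% and 1.42%. The order was the same at fixed position: among members within 100 bp of the TSS alone, DRE was in 17.4% of 609 in the first bin, 8.40% of 381 in the middle bin and 5.42% of 203 in the last. GAGA stood at 2.30%, 8.14% and 7.39% in the same 3 bins of these TSS-proximal members. Su(H) sites were at 4.93%, 5.51% and 5.42% in the same bins of TSS-proximal members, with 6.32% in the second bin and 4.40% in the fourth. Over all members they were at 5.02%, 5.56%, 4.98%, 4.42% and 3.84% from the first bin to the last.

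Windows centred on the TSS, which do not depend on summit position, were compared next. A reproducible summit lay within 500 bp of 4707 TSSs, a weak one only at 5155, and neither at 9745. Ohler 1 was in 8.84%, 8.73% and 2.54% of these classes, so TSSs with a weak summit carried it about as often as those with a reproducible one. Ohler 7 was in 10.8%, 3.94% and 1.79%, and DRE in 11.6%, 8.69% and 2.74%. The Initiator had the opposite order, with 36.0%, 42.6% and 47.2%.

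With the classes rebuilt from each replicate list, Ohler 1 differed between weak-only and strong TSSs by -0.435 points ± 0.124 and Ohler 7 by -6.47 points ± 0.429 (SD, n = 3, each lower in 3 of 3, exact permutation p = 0.25, adjusted over 10 motifs 0.313). GAGA was higher at weak-only TSSs by 1.17 points ± 0.166 and the Initiator by 7.01 points ± 0.600, each in 3 of 3 replicates with the same p. Su(H) differed by -0.0356 points ± 0.421, below its own spread, and was higher in 1 of 3. The TATA box was higher at weak-only TSSs by 2.14 points ± 1.44, opposite in sign to the contrast around summits, and turned to -0.387 with motifs within 200 bp of the TSS.

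At the level of genes, 26.3% of 13945 protein-coding genes had a reproducible summit within 500 bp of a TSS, 25.4% (3539) had weak summits only and 48.4% had neither. Of the 10283 genes without a reproducible summit, 34.4% carried a weak one. Of the weak-only genes, 42.9% had at least 1 weak summit inside a peak of all 3 replicates, which is what found in all 3 means for the genes of a list below. The median gene length was 3118 bp with a reproducible summit, 2927 bp with weak summits only and 1582 bp with neither, and 41.9%, 33.8% and 14.4% had more than 1 TSS. Longer genes with more TSSs offer more windows, and the part of this in the gene lists below was not tested. The most weak summits at 1 gene were 9, at Tlk, a chromatin-linked kinase with 8 TSSs, and at mtd with 11 TSSs.

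Of 27 genes of the Notch pathway, 12 had a reproducible summit, 11 weak summits only and 4 neither, so 73.3% of the 15 without a reproducible summit carried a weak one, beside 34.4% over all genes. With each replicate list used by itself, 55.6%, 25.9% and 29.6% of the list were weak only in replicates 1, 2 and 3, beside 29.5%, 23.6% and 23.7% of all genes. The excess was thus large in replicate 1 and small in replicates 2 and 3. Among genes of the signal-sending side, the ligand gene Ser had 1 weak summit, 123 bp downstream, with replicate signals of 31.0, 20.1 and 14.5. The gene for the ubiquitin ligase that endocytoses ligands, mib1, had a summit 57 bp upstream at 22.4, 41.1 and 26.8. Its rank was 13883 in replicate 1 but 4591 in replicate 2, so the replicates placed it differently.

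In the receiving cell, O-fut1 adds fucose to Notch, and its summit 47 bp upstream had signals of 23.1, 35.8 and 25.5 in replicates 1, 2 and 3. The same summit lay 121 bp upstream of CysRS-m and was also counted in the aminoacyl-tRNA synthetase list. Of the members, 917 were counted at 2 or more genes, so the lists are not fully separate. The gene of the gamma-secretase catalytic subunit, Psn, had the strongest weak-only summit of the list, with a pooled signal of 94.0. It was absent from the replicate 1 list and stood at ranks 3948 and 5286 in replicates 2 and 3. The protease gene kuz had replicate signals of 26.9 and 26.7 and was not found in replicate 3. Nct, another gamma-secretase subunit gene, was found in replicate 1 alone, 432 bp upstream and in coding sequence.

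Among nuclear members, the corepressor genes H and CtBP were found in all 3 replicates, with pooled signals of 62.0 and 76.3. The summit at H, 131 bp downstream, ranked 14375, 10123 and 11327, in the middle of every list. The gene of the precipitated protein, mam, had a reproducible summit of signal 166.2 and 3 weak ones at other starts. The strongest weak one, of pooled signal 80.5 and 452 bp upstream, had no peak in replicate 1 and ranked 4484 and 9354 in replicates 2 and 3. A weaker summit 199 bp upstream lay inside the same replicate 2 peak, so these 2 members are not separate observations there. The CBP gene nej likewise had a reproducible summit and a weak one of 74.0 at another start.

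Of 23 Notch target genes, 4 had a reproducible summit (17.4%), 8 weak summits only (34.8%) and 11 neither, beside 26.3% reproducible and 25.4% weak only over all genes. Of the 19 without a reproducible summit 42.1% carried a weak one, and the exact interval of 20.3% to 66.5% held the 34.4% over all genes. By TSS, 28.6% had only a weak summit, against 26.3% of all TSSs. The 8 weak-only genes had a median pooled signal of 46.2 against 59.7 over all weak-only genes. Of these 8, 1 (12.5%), the Bearded-family gene Tom, was found in all 3 replicates, beside 42.9% over all weak-only genes. In the Enhancer of split cluster, whose bHLH repressors are the classical Notch response genes, the E(spl)m8-HLH summit had a pooled signal of 38.5 and was found in replicate 1 alone, at rank 26012. E(spl)m5-HLH was found in replicate 3 alone, E(spl)malpha-BFM in replicate 1 alone, and E(spl)mdelta-HLH, of pooled signal 43.7, in replicates 1 and 2. Of the same cluster, E(spl)m3-HLH, E(spl)mbeta-HLH and E(spl)m7-HLH had reproducible summits of 442.4, 152.4 and 148.7. The summit at Tom, 382 bp downstream and in coding sequence, had replicate signals of 17.6, 16.1 and 27.3 at ranks 21302, 14315 and 8041. None of these stood near the top of a list. The homeobox gene ct, 4 bp downstream of its TSS, had signals of 31.0 and 20.4 in replicates 1 and 3 and none in replicate 2.

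Most of the lists, developmental and housekeeping alike, had weak-only shares above the 25.4% of all genes, among them aminoacyl-tRNA synthetases with 40.6% and oxidative phosphorylation with 35.6%. Of 10 Hox genes and cofactors, 8 had weak summits only and 1, Antp, a reproducible one, with a median pooled signal of 46.4 in the weak-only genes, and 2 of 8 found in all 3 replicates. Dfd, which patterns the head, was highest with replicate signals of 43.0, 12.3 and 19.1, at ranks 4981, 22894 and 13684, far higher in replicate 1 than in replicate 2. The cofactor exd had 24.4, 23.4 and 22.1, at ranks 11907, 8386 and 10820, with no replicate near either end of its list. Ubx, Scr and pb were found in 1 replicate each and abd-A in none. When each replicate list was used by itself, 50%, 40% and 50% of the list were weak only, beside 29.5%, 23.6% and 23.7% of all genes. The Hox list had a median gene length of 30563 bp, and 50% of its 24 TSSs had only a weak summit, against 26.3% of all TSSs.

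Signalling pathways differed in their weak-only share, beside 25.4% of all genes weak only and 26.3% reproducible. Dpp signalling had 10 of 18 genes weak only (55.6%) and 3 reproducible, Wingless signalling 13 of 24 (54.2%) and 9, and EGFR signalling 12 of 25 (48.0%) and 8. JAK-STAT signalling had 5 of 11 weak only (45.5%). Hippo signalling, with 5 of 17 (29.4%), and Hedgehog signalling, with 3 of 13 (23.1%), lay near the share of all genes in the pooled list. By replicate list, Hedgehog signalling was weak only in 61.5%, 30.8% and 23.1% of genes in replicates 1, 2 and 3. Hippo signalling had 35.3%, 29.4% and 35.3%, and all genes 29.5%, 23.6% and 23.7%. Hedgehog signalling was thus far above all genes in replicate 1. The exact intervals of the pooled shares were wide and overlapped, at 5.04% to 53.8% for Hedgehog and 30.8% to 78.5% for Dpp signalling. In the Dpp list the type I receptor genes sax and tkv had pooled signals of 109.1 and 100.7, just short of the threshold. At tkv the replicate signals were 30.8, 34.7 and 36.1, at ranks 8114, 5489 and 5783. At the secreted antagonist gene sog they were 49.8, 22.1 and 19.2, at ranks 4062, 9008 and 13506. The replicates placed tkv within a narrower range of ranks than sog. In the Wingless list the beta-catenin cofactor gene lgs had 24.0, 58.4 and 34.5, at ranks 12288, 2978 and 6082. The relay gene dsh had 18.2, 33.6 and 35.0, at ranks 20072, 5691 and 5991. Both ranked lowest in replicate 1, also as a share of the list. In the EGFR list the adaptor gene dos had 31.1, 36.6 and 44.5, at ranks 7985, 5171 and 4544. The protease gene rho, which releases the ligand, had 52.8, 17.2 and 28.4, at ranks 3732, 12903 and 7671.

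Against the same 25.4% weak only and 26.3% reproducible over all genes, apoptosis genes were weak only in 9 of 15 cases (60.0%) and reproducible in 4. The effector caspase gene Drice had replicate signals of 26.2, 39.7 and 31.3, and the initiator-type caspase gene Dredd 55.3, 36.9 and 25.6. The dosage compensation list had 5 of 6 genes weak only (83.3%, exact interval 35.9% to 99.6%). By replicate list the share was 66.7%, 33.3% and 66.7%, beside 29.5%, 23.6% and 23.7% of all genes. Among the weak-only genes of this list Clamp was highest at a pooled signal of 83.8, found in replicates 2 and 3. The male-specific lethal complex gene msl-3 was at 57.0 and found in replicates 1 and 3. Of these 5 genes, 1, mof, was found in all 3 replicates. Segmentation regulators were weak only in 10 of 24 cases (41.7%), and the pair-rule gene hry led with 36.2 and 39.7 in replicates 1 and 3 and no peak in replicate 2.

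Among housekeeping lists the split between reproducible and weak-only genes varied, beside 26.3% reproducible and 25.4% weak only over all genes. Cytosolic ribosomal protein genes were reproducible in 67 of 93 cases (72.0%) and weak only in 21 (22.6%), slightly below the weak-only share of all genes. Of the 26 without a reproducible summit 80.8% had a weak one, beside 34.4% over all genes. The median weak signal of the weak-only genes was 77.0, beside 59.7 over all weak-only genes. Oxidative phosphorylation genes were reproducible in 29 of 87 cases (33.3%) and weak only in 31 (35.6%), with a median weak signal of 79.8. Of these 31, 20 (64.5%) were found in all 3 replicates, beside 42.9% over all weak-only genes. Aminoacyl-tRNA synthetase genes were reproducible in 11 of 32 cases (34.4%) and weak only in 13 (40.6%), with a median of 58.5, slightly under that of all weak-only genes. The complex I gene ND-30 had replicate signals of 29.7, 37.8 and 38.1, and the ATP synthase gene ATPsynB 32.1, 22.9 and 45.8. At RpS23, 4 bp downstream of the TSS, they were 26.7, 40.5 and 41.3, at ranks 10252, 4681 and 4965. Polycomb and Trithorax group genes were reproducible in 16 of 24 cases (66.7%) and weak only in 5 (20.8%). Of these 5 genes 4 were found in all 3 replicates, among them osa, of the Brahma remodelling complex, at 23.1, 39.6 and 43.3.

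Lists of genes of differentiated tissues differed among themselves. None of 96 cuticle protein genes had a reproducible summit and 13 had weak ones, a weak-only share of 13.5%, with a median pooled signal of 41.0 and 1 of 13 found in all 3 replicates. Chemosensory receptor genes, used by adult and larval sense organs, were weak only in 9 of 180 cases, far under the 25.4% over all genes. Of 16 neuronal terminal genes 7 (43.8%) were weak only and none reproducible, and of 20 muscle structural genes 8 (40%) were weak only and 3 reproducible. Counted by gene, both lists lay above the share over all genes. Counted by TSS, the neuronal list lay below, with 22.5% weak only against 26.3% of all TSSs, and the muscle list above, with 48.1%. The synaptic vesicle calcium sensor gene Syt1 had replicate signals of 44.8, 25.2 and 32.6 and was the 1 neuronal terminal gene found in all 3 lists. Trypsin-like protease genes were weak only in 3 of 32 cases, below that share. Germline genes were weak only in 1 of 16 cases, vls, and reproducible in 9. No histone gene of 111 was near a summit of either class, but these are near-identical repeated copies, so their counts are uncertain.

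**Figure D5:**
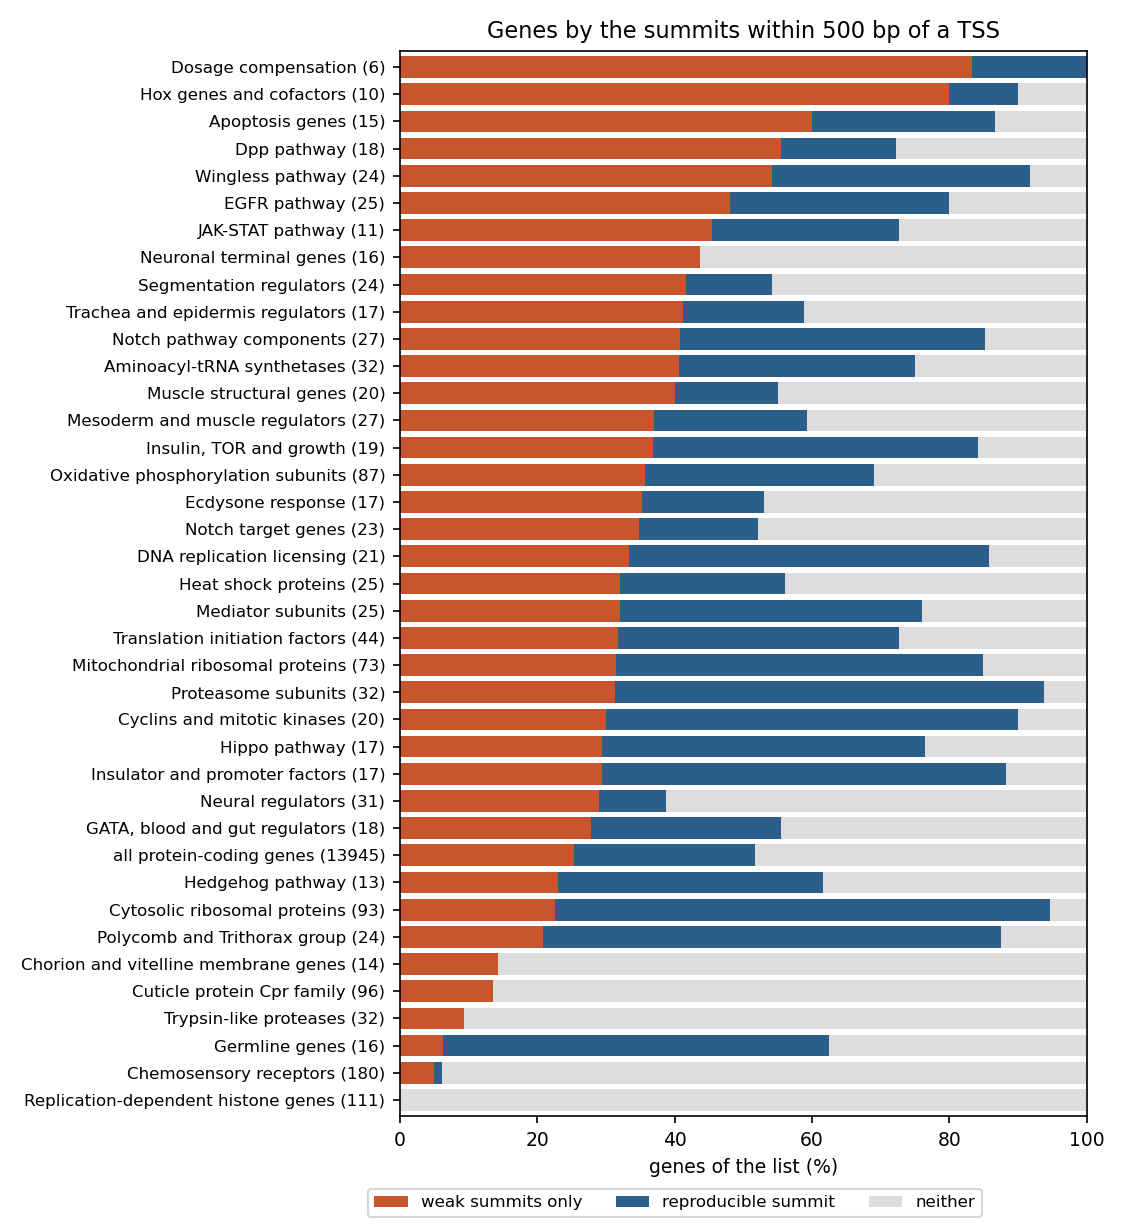
Genes of each list (number in parentheses) by the summits within 500 bp of a TSS, as percent of the list (horizontal axis): weak only (orange), reproducible (blue) or neither (grey). Hox and dosage compensation lists had the highest weak-only shares in the pooled list, 80.0% and 83.3%, against 25.4% of all protein-coding genes. In the replicate lists their mean shares were 46.7% and 55.6%, below the 59.3% of Dpp signalling.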

How the data were processed

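The authors deposited peak lists from 3 biological replicates and from the pooled replicates, in dm6 and dm3. The dm3 lists were not used here. Per the notes deposited with the samples, the replicate and pooled lists are peaks and background prepared for IDR, and the thresholded list derives from them. Which aligner and peak caller made them, and with what thresholds, is not given in the sources that were used here. The deposited signal of each peak is a height of unstated scaling, so signals were ranked within a list, and replicate signals printed side by side are not on a common scale. The authors' −log10 q-value was used to describe and filter peaks. Read numbers are not in the lists, so depth is unknown. Exact (Clopper-Pearson) 95% intervals cover counting error only.

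The thresholded list equalled the 5326 strongest pooled peaks. Positions are 1-based dm6 coordinates, and TSSs come from Ensembl 115 (BDGP6.54), with 13945 protein-coding genes and 19607 TSSs on 6 main arms. A peak was found in a replicate when its summit lay inside one of its peaks. Motifs were searched in 201 bases on both strands. The Su(H) string was at first allowed any base at position 4 and was narrowed after the matches were seen. Differences between classes were taken within each replicate list and tested over the 3 replicates by an exact two-sided sign-flip permutation test. Its smallest p is 0.25. Gene lists (38) were described by counts without a test. The members and lists were chosen with earlier results of these data known, and several list symbols were updated to current names by hand. The sex-determination gene her, put among Notch targets in error, was taken out after its values were seen.

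Named genes were mam, all Notch genes with a member, the 12 strongest members, the 10 highest over the replicates with no reproducible summit within 1000 bp, up to 3 of the strongest per list, the 5 genes with the most summits and those beside the threshold. E(spl), Hox and other list members cited only for the replicates they were found in, and genes named as exceptions, were added after their values were seen. Counting was tested on simulated peaks. Analyses used Python 3.11.15, numpy 2.4.6, pandas 2.3.3 and scipy 1.17.1.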

Additional observations from a re-analysis of the deposited data

How the results depend on the processing

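Alternatives were other windows, filters, overlap rules, list lengths and leaving out each replicate, and those on position, TSS motifs, gene lists, cross-replicate support and the wider Su(H) string were chosen after seeing the data. Of all recomputed values, 204 kept their direction or stayed near their main value, 63 moved and 7 reversed. Some weak-only counts of gene lists moved with the TSS window. Cuticle genes went from 13 to 3 at 200 bp and 26 at 1000 bp. Notch targets went from 8 to 5 and 13, and to 1 with members found in every replicate. Other lists stayed near at these windows, such as Wingless signalling at 13 and 14. The member count was 3082 with a TSS window of 200 bp and 774 with a −log10 q-value of at least 2. The promoter share of weak peaks was 16.4% at 200 bp, 38.0% at 1000 bp, 33.2% in the stronger 50% of weak peaks and 18.8% in the weaker 50%. Members beside a reproducible summit were 8.59% measured from the member summit, 19.1% within 1000 bp of the TSS and 8.14% by overlapping peaks. Weak-only genes numbered 1519 with members found in every replicate. The share found in all replicates was 50.4% with 1 bp of overlap, 33.1% with lists of equal length and 0.349% among the strongest peaks only, and 46.2% to 51.0% when 1 replicate was left out and 2 had to hold the peak. The downstream share was 26.0% with 1 TSS per gene and 13.6% in members found in every replicate. The E-box difference around summits was 0.105 points with motifs within 50 bp. Around TSSs, leaving out 1 replicate put Su(H) between -0.278 and 0.0939 and Zelda between -0.0831 and 0.0581, with Su(H) at 0.0774 without replicate 2. Motifs within 200 bp of the TSS gave -0.387 for the TATA box, 0.0775 for Zelda and 0.133 for Pho. The causes of these shifts were not tested. Unknown depth and 3 replicates limit every comparison. With 1 group there are no groups to pair by replicate number, and peak classes were compared within each replicate.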
